A study of Mus musculus with 12 samples.

Results

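The *Hes* and *Hey* genes and *Nrarp* were followed in 12 RNAseq libraries from primary mouse oligodendrocyte precursor cells (OPCs). The 8 genes, *Hes1*, *Hes5*, *Hes6*, *Hes7*, *Hey1*, *Hey2*, *Heyl* and *Nrarp*, were chosen by symbol, and all 8 were found among 45563 symbols with values. The cells came from cortices of pups labelled C57BL/6 (C57BL/6J for WT in the methods) at postnatal days 2 to 5, were selected with anti-PDGFRα beads and were grown for 3 days in vitro. WT and TNFR2-/- (TNFR2 KO) cultures were either non-stimulated (NS, vehicle) or stimulated (St) for 3 h with TNF, IFNγ and IL1β at 25 ng/mL each. This gave 4 groups of 3 libraries, WT NS, WT St, TNFR2-/- NS and TNFR2-/- St, in which both genotypes, the knockout being germline, shared the labelled strain, the selection and the culture medium.

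Hes and Hey proteins are basic helix-loop-helix transcriptional repressors, and several of their genes are classical targets of Notch. Ligands of the Delta and Jagged families on a neighboring cell cause Notch to be cleaved, and the released intracellular domain joins the DNA-binding protein RBPJ and Mastermind coactivators at target promoters. In the oligodendrocyte lineage, Notch activity and Hes1 and Hes5 are known to hold precursors back from maturing, and the same genes are used by neural stem cells and astrocytes. Hes6 differs from its relatives in that it can oppose Hes1, while *Nrarp* encodes an ankyrin-repeat protein that is a Notch target and dampens Notch signaling.

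The group names are those of the labels. Reads of *Tnfrsf1b*, which encodes TNFR2, went against them, with 213 to 346 per library labelled TNFR2-/- NS where WT NS had 12 to 24, and 282 to 356 per library labelled TNFR2-/- St where WT St had 61 to 145. A total per gene does not tell which of its exons were read, so each direction between genotypes below is one between labels. Libraries held 26870793 to 30317137 reads on the genes used. Markers of OPCs were high in every group, with a sum over 8 genes of 8575 to 9953 RPM (reads scaled to the library total) in NS and 7115 to 8194 in St, so that every St library lay below every NS library. The sum of 6 neuronal markers was 96.2 to 144 RPM in NS and 450 to 535 in St, and 2 of them, named after their values were seen, passed the test described below. *Tubb3* rose by 3.06 on the log2 scale in WT (adjusted p = 9.65e-07) and 3.19 in TNFR2-/- cells (adjusted p = 5.96e-07), and *Snap25* changed by −0.97 (adjusted p = 0.0154) and −0.94 (adjusted p = 0.0129). The part of either list in the falls with stimulation below was not tested. The 7 microglial markers summed to 0.707 to 1.88 RPM. The sum of 8 astrocyte markers was 1785 to 2120 RPM in WT and 2641 to 4266 in TNFR2-/- libraries. The highest sums, 4266 and 4224, came from the NS and St libraries of TNFR2-/- culture 5, where *Gfap* reached 231 and 233 FPKM against 6.23 to 42.5 elsewhere.

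Promoters are shown for *Hes5*, *Nrarp* and *Hey2*, each lower after stimulation in all 6 cultures. Of the 3, *Hey2* changed least. The sequences are the 250 bases before the RefSeq start on GRCm38.p6, 5′ to 3′ on the gene's strand, with the core letters TGGGAA of the RBPJ site, on either strand, in capitals. They lie at chr4:154960673-154960922 (plus strand), chr2:25180508-25180757 (plus) and chr10:30842784-30843033 (minus).
*Hes5*: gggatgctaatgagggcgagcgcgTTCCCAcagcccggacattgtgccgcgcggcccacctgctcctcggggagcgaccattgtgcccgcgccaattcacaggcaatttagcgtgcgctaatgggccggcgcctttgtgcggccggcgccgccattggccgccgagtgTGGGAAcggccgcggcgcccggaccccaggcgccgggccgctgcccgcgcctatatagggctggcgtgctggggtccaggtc
*Nrarp*: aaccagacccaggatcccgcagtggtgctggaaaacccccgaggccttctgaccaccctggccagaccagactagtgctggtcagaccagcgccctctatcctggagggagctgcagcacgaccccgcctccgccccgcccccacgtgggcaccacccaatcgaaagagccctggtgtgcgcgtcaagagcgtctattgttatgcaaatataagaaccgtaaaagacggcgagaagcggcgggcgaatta
*Hey2*: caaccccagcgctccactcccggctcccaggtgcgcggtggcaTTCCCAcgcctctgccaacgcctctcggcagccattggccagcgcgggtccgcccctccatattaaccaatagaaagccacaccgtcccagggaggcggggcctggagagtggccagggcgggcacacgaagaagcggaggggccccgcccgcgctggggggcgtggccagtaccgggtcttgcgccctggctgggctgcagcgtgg

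The *Hes5* window held 2 matches to the core, beginning 226 and 82 bases before the start, in opposite orientations. The *Hey2* window held 1, at 207 bases, and that of *Nrarp* none. Of 32851 windows of this length, 21.6% held at least 1 match and 2.77% at least 2. Windows were given for 5 members (*Hes6* has 2 of them), and besides these only *Hes7* had a match, at 180 bases. Other letters were searched as well. The E box CACGTG was found only in the *Nrarp* window, once, against 6.02% of all windows. The letters CACGCG were found only in that of *Hes7*, once, against 7.62%. The N box CACNAG was found 2 times in the *Nrarp* window, where 8.18% of all windows held at least 2. It was found once in that of *Hes7* and once in 1 *Hes6* window, where 36.7% held at least 1. No member window held TTCNNNGAA, against 7.02% of all windows. A match of letters is a description and does not show binding.

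The FPKM of different genes could not be compared, because each was divided by a number of bases unrelated to the gene's length. Read counts were therefore recovered from the FPKM and expressed as RPM per kilobase of exon in GENCODE. On that scale *Hes6* was the highest member in WT NS at 13.1 ± 0.706 (SD, n = 3), followed by *Hey1* at 9.90 ± 0.899 and *Hes1* at 8.57 ± 1.48. The 3 *Hes6* values lay above all of *Hey1*, whereas *Hey1* and *Hes1* overlapped. *Hes5* followed at 1.02 ± 0.233, then *Hey2* at 0.630 ± 0.104 and *Nrarp* at 0.420 ± 0.173, whose ranges overlapped. *Hes7* reached 0.158 ± 0.0313, and *Heyl* had 1 read in each library. Stimulation changed this order. In WT St *Hey1* led at 9.53 ± 0.0694, above all 3 values of *Hes6* at 8.43 ± 0.707, and *Hes1* stood at 2.15 ± 0.262.

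**Figure D1:**
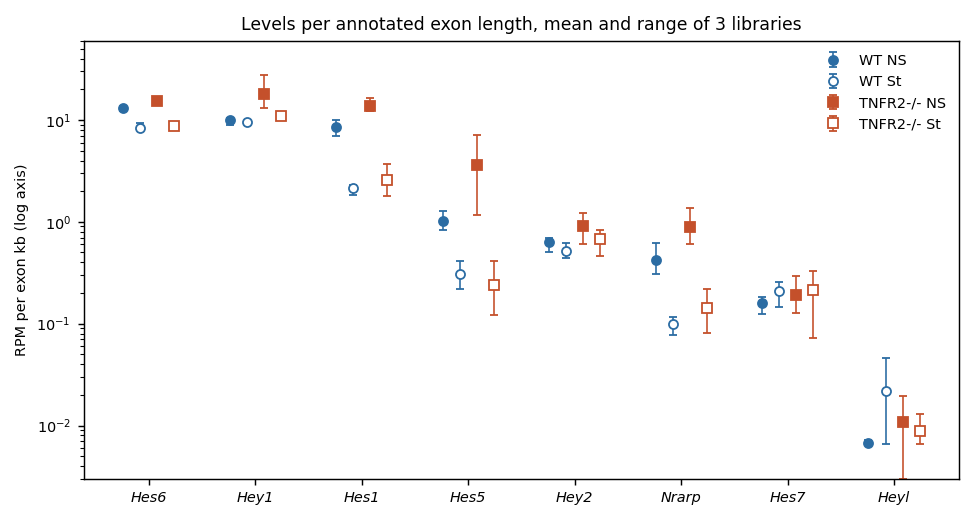
Levels of the 8 genes in RPM per kilobase of annotated exon (log axis), as the mean (symbol) and range (bar) of the 3 libraries of each group, ordered by WT NS. *Hes6*, *Hey1* and *Hes1* lie highest before stimulation, with *Hes1* at 2.15 in WT St, and the lowest *Heyl* value (0 reads) is drawn at the edge of the axis.

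Stimulation lowered *Hes1* and *Hes6* in both genotypes. *Hes1* (ENSMUSG00000022528; chromosome 16 of GRCm38, 30064384 to 30067796), the principal Hes repressor of neural progenitors, had 57.5, 40.5 and 51.2 FPKM in WT NS replicates 2, 3 and 4, and 13.3, 10.7 and 13.4 in WT St. In TNFR2-/- replicates 2, 4 and 5 it had 94.4, 70.8 and 72.8 FPKM in NS, and 21.4, 12.5 and 10.5 in St. All St values lay below all NS values in either genotype. Its mean was 3.99-fold lower in WT and 5.36-fold lower in TNFR2-/- cells. With limma on log2(FPKM + 0.5), the change was −1.95 ± 0.23 SE in WT (adjusted p = 0.000218) and −2.43 ± 0.23 SE in TNFR2-/- cells (adjusted p = 3.06e-05).

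*Hes6* (ENSMUSG00000067071; chromosome 1, 91411483 to 91414038, minus strand) moved less, with little spread. It had 11.5, 10.3 and 11.3 FPKM in WT NS and 6.73, 6.81 and 7.80 in WT St. In TNFR2-/- cells it had 12.8, 12.6 and 13.5 FPKM in NS and 7.52, 7.20 and 7.22 in St. Again NS and St did not overlap. The change was −0.60 ± 0.08 SE in WT (adjusted p = 0.000411) and −0.79 ± 0.08 SE in TNFR2-/- cells (adjusted p = 4.32e-05). In WT it lay at the 1.5-fold threshold and dropped under it, to −0.55, when libraries were scaled by median of ratios.

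**Figure D2:**
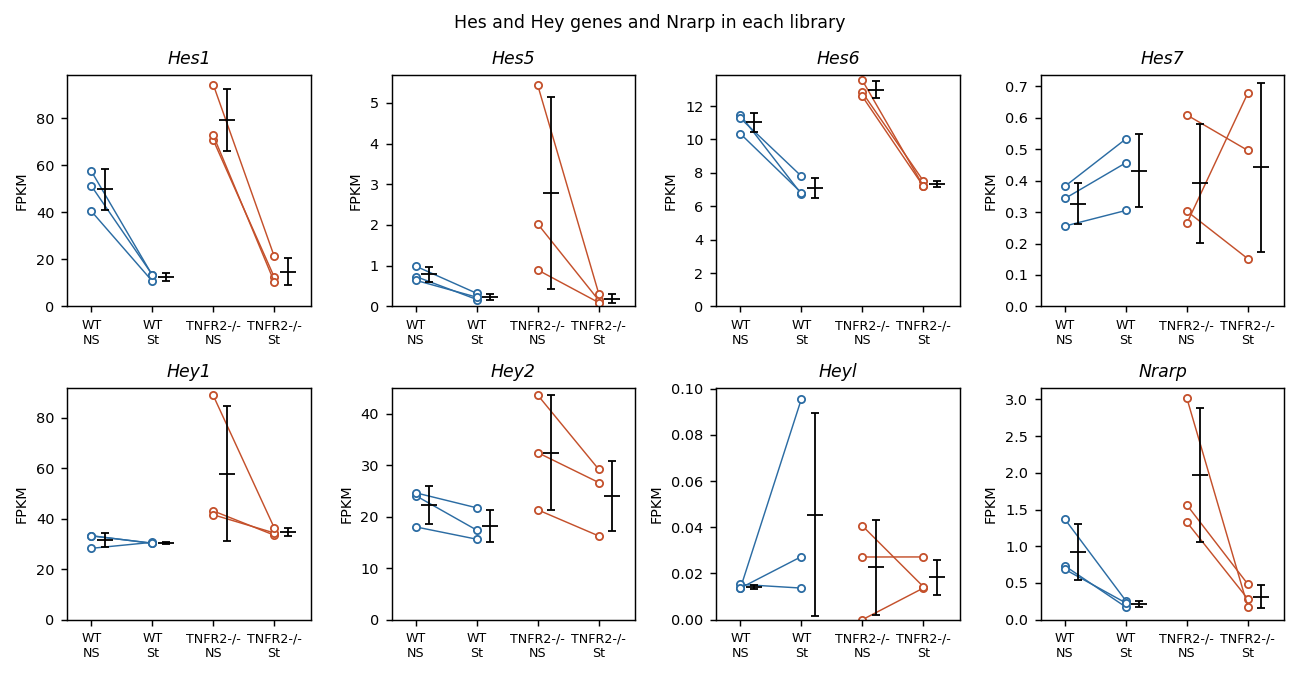
FPKM of each gene in each of the 12 libraries. Circles are libraries, lines join the NS and St libraries of 1 culture (blue WT, orange TNFR2-/-), and black marks give the group mean and SD (n = 3). *Hes1*, *Hes5*, *Hes6*, *Hey2* and *Nrarp* fall along every line, and the highest *Hes5*, *Hey1*, *Hey2* and *Nrarp* values all belong to 1 TNFR2-/- NS library. FPKM scales cannot be compared between panels.

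*Hes5* and *Nrarp*, both low, were also lower after stimulation. *Hes5* (ENSMUSG00000048001; chromosome 4, 154960923 to 154962371), the other main Notch effector of neural progenitors, had 39, 47 and 34 reads in WT NS and 9, 17 and 12 in WT St. In TNFR2-/- cells it had 108, 48 and 292 reads in NS and 8, 5 and 16 in St. In FPKM this was 0.786 ± 0.179 against 0.238 ± 0.0761 in WT and 2.78 ± 2.36 against 0.186 ± 0.115 (SD, n = 3) in TNFR2-/- cells, or 3.31-fold and 15.0-fold lower means. Without TNFR2-/- NS replicate 5 the latter was 7.84-fold. Groups did not overlap in either genotype, and the SD of TNFR2-/- NS came close to its mean. limma gave −2.02 ± 0.40 SE in TNFR2-/- cells (adjusted p = 0.00423), or −1.46 without that library (adjusted p = 0.00249), and −0.80 ± 0.40 SE in WT (adjusted p = 0.237). The pseudocount shrinks the change of such low genes, and voom, which is limma with weights on log counts of the recovered reads, gave −3.64 (adjusted p = 0.00741) and −1.70 (adjusted p = 0.22). In WT 20 of 23 alternatives did not pass, among them the block for each culture (adjusted p = 0.0718, or 0.0808 with median-of-ratios scaling). The adjusted p was 0.0333 without TNFR2-/- NS replicate 5, which enters through the shared estimate of spread, 0.0113 with the 6 WT libraries alone and 0.000246 with voom and the block.

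*Nrarp* (ENSMUSG00000078202; chromosome 2, 25180758 to 25183339) had 48, 23 and 24 reads in WT NS and 9, 6 and 8 in WT St. The TNFR2-/- libraries had 55, 47 and 107 reads in NS and 17, 10 and 6 in St. No St library reached its genotype's NS range, and means were 4.26-fold lower in WT and 6.25-fold lower in TNFR2-/- cells. The change was −0.96 ± 0.26 SE in WT (adjusted p = 0.0268) and −1.55 ± 0.26 SE in TNFR2-/- cells (adjusted p = 0.00135). With voom it was −1.97 (adjusted p = 0.0227) and −2.60 (adjusted p = 0.00141). In WT the adjusted p no longer passed when either WT NS replicate 2 or any WT St library was left out, with an adjusted p of at most 0.102, nor without the filter on low values (adjusted p = 0.0525).

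To be called, a gene needed an adjusted p no higher than 0.05, a 1.5-fold change or more and a mean of 1 FPKM or more. By this rule 2 of 7 members tested, *Hes1* and *Hes6*, were called lower in each genotype, against 2.95% of all 18081 genes tested in WT and 4.68% in TNFR2-/- cells. *Hes5* and *Nrarp* averaged 0.998 and 0.857 FPKM and so fell under the level, which rests on the authors' divisors. Without a minimum level, 3 members were called lower in WT and 4 in TNFR2-/- cells, against 3.16% and 5.08% of genes. The members' median log2 fold change was −0.60 in WT and −0.79 in TNFR2-/- cells, against −0.05 and −0.11 over all genes tested. NS and St did not overlap for 4 of 8 members in WT and 5 of 8 in TNFR2-/- cells, all lower in St, against 24% and 24.7% of genes tested. In bulk RNA, fewer expressing cells and less RNA per cell cannot be told apart.

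The *Hey* genes changed less. *Hey1* (ENSMUSG00000040289; chromosome 3, 8663359 to 8667256, minus strand), a repressor related to Hes that is also induced by BMP signals, had 33.3, 28.3 and 33.2 FPKM in WT NS and 30.2, 30.6 and 30.3 in WT St. In WT the groups overlapped, and the change of −0.05 ± 0.23 SE had a 95% interval of −0.56 to 0.46 (adjusted p = 0.933). In TNFR2-/- cells it had 43.1, 41.5 and 88.8 FPKM in NS and 33.5, 34.4 and 36.4 in St. All 3 cultures were lower in St, by −0.63 ± 0.23 SE (adjusted p = 0.0673). With a block for each culture the adjusted p was 0.0315, but with median-of-ratios scaling and the block it was 0.075. With voom and the block the change was −0.69 (adjusted p = 0.000804), and 18 of 24 alternatives did not pass. Without TNFR2-/- NS replicate 5 the change was −0.28 (adjusted p = 0.0319), under the fold threshold.

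*Hey2* (ENSMUSG00000019789; chromosome 10, 30832359 to 30842801, minus strand), known best from the heart and vessels, had 94, 63 and 96 reads in WT NS and 68, 61 and 85 in WT St. TNFR2-/- libraries had 127, 84 and 172 reads in NS and 104, 64 and 109 in St. Groups overlapped, since cultures differed more from each other than with stimulation, yet each culture was lower after it. The change was −0.28 ± 0.27 SE in WT (adjusted p = 0.596) and −0.41 ± 0.27 SE in TNFR2-/- cells (adjusted p = 0.313). With a block for each culture the adjusted p was 0.0351 in WT and 0.00577 in TNFR2-/- cells, both under 1.5-fold. The WT value did not pass with median-of-ratios scaling and the block (adjusted p = 0.0803).

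*Hes7* and *Heyl* were near the limit of detection. *Hes7* (ENSMUSG00000023781; chromosome 11, 69120404 to 69124055), an oscillator of the somite clock, had 6 to 10 reads in WT NS, 8 to 14 in WT St, 7 to 16 in TNFR2-/- NS and 4 to 17 in TNFR2-/- St. All groups overlapped. The changes were 0.17 ± 0.22 SE in WT (adjusted p = 0.703) and 0.06 ± 0.22 SE in TNFR2-/- cells (adjusted p = 0.882). *Heyl* (ENSMUSG00000032744; chromosome 4, 123233556 to 123249875), typical of mural cells, had 0 to 7 reads in a library and 22 in all. It was under the filter for testing, and 11 of its libraries had no more than 3 reads, so no fold is given.

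Reads of opposite strands could not be told apart, as the sources used here do not state strand-specific counting. *Gm20421* lies opposite *Hes5* and had 0 to 3 reads, and *Gm38287*, opposite *Nrarp*, had 0 in every library. *9130213A22Rik*, opposite *Hes7*, had 5 to 24 reads, more than *Hes7* in total (177 against 124), so that *Hes7* is the uncertain one.

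Equal numbers paired the NS and St libraries of 1 culture within a genotype. Over the 6 cultures, *Hes1* changed by −2.19 ± 0.339 (SD, n = 6) on the log2(FPKM + 0.5) scale, between −2.73 and −1.87. *Hes6* changed by −0.69 ± 0.132, *Hes5* by −1.41 ± 0.849, *Nrarp* by −1.26 ± 0.589 and *Hey2* by −0.34 ± 0.154, each lower in 6 of 6 cultures. For each of these 5 genes the exact two-sided sign-flip permutation test gave p = 0.0312, which is the smallest that 6 cultures allow. *Hey1* was lower in 5 of 6 cultures, by −0.34 ± 0.484 (exact permutation p = 0.0625). *Hes7* was higher in 4 of 6 (exact permutation p = 0.469), and *Heyl* had too few reads for a direction. These values of p are unadjusted, and the share of all genes tested that reach 0.0312 was not determined. Of 18081 genes tested, limma gave a negative change with stimulation for 11076 in WT and for 11992 in TNFR2-/- cells.

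**Figure D3:**
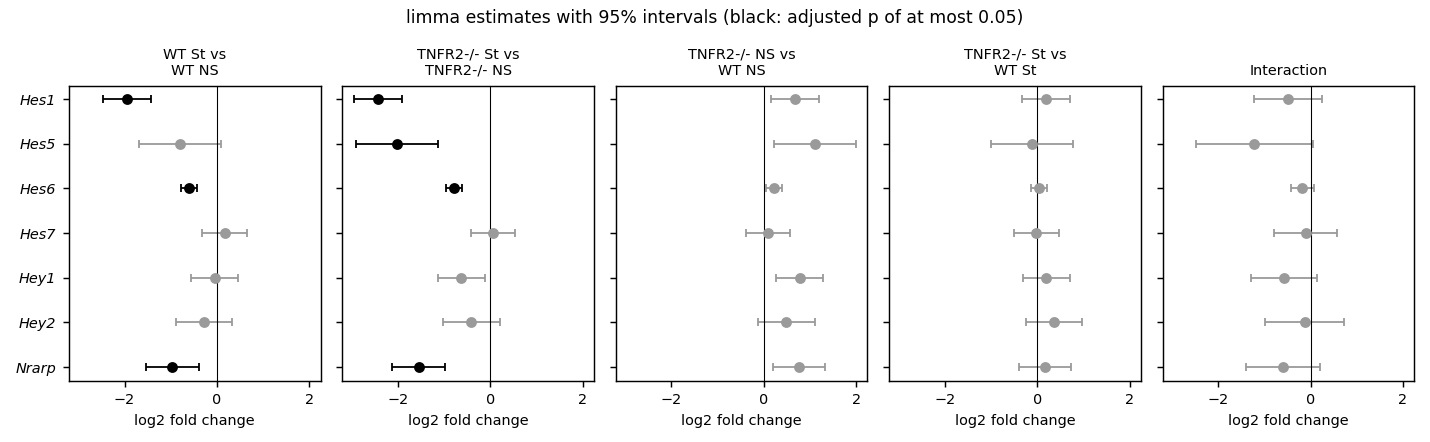
limma log2 fold changes of the 7 genes tested, on log2(FPKM + 0.5), with 95% intervals, for 4 comparisons and for the interaction of genotype and stimulation. Black marks have an adjusted p of at most 0.05. The intervals of *Hes1*, *Hes6* and *Nrarp* lie below 0 for stimulation in both genotypes. For TNFR2-/- NS vs WT NS 7 of 7 estimates lie above 0 without passing (10109 of 18081 genes tested lie above 0). For the interaction 7 of 7 lie below 0 without passing (10783 of 18081 genes tested lie below 0).

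Before stimulation, all 7 members tested had higher values in the libraries labelled TNFR2-/-, as did 10109 of all 18081 genes tested. None of the members was called, against 2.9% of genes tested. The largest difference was that of *Hes5* at 1.11 ± 0.40 SE (adjusted p = 0.097), where the 3 TNFR2-/- libraries had 0.894 to 5.43 FPKM and overlapped with WT. *Hey1* differed by 0.77 ± 0.23 SE (adjusted p = 0.0554), *Nrarp* by 0.76 ± 0.26 SE (adjusted p = 0.0781) and *Hes1* by 0.67 ± 0.23 SE (adjusted p = 0.0876). *Hes6* differed by 0.23 ± 0.08 SE (adjusted p = 0.0875), *Hey2* by 0.49 ± 0.27 SE (adjusted p = 0.261) and *Hes7* by 0.09 ± 0.22 SE (adjusted p = 0.819). At an unadjusted p under 0.05 there were 5 members, against 30.2% of genes tested. For *Hes1*, *Hes6* and *Hey1* all 3 TNFR2-/- libraries lay above all WT libraries, as did 19.9% of genes tested. With voom on the recovered reads *Hes1* (0.67, adjusted p = 0.032) and *Hey1* (0.78, adjusted p = 0.0485) passed.

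TNFR2-/- NS replicate 5 held the highest NS value of 6 of the 8 members, *Hes1* and *Hes7* being the exceptions. Without it the difference was 0.55 for *Hes5* (adjusted p = 0.218), 0.48 for *Nrarp* (adjusted p = 0.228), 0.25 for *Hey2* (adjusted p = 0.63) and 0.42 for *Hey1* (adjusted p = 0.0488), and that of *Hes1* was 0.73 (adjusted p = 0.158). All 8 astrocyte markers had higher values in TNFR2-/- NS than in WT NS, with a median of 0.76 and none called, and 7 of 8 were highest in that library among NS libraries. The St library of the same culture had 4224 RPM of astrocyte markers. It held 16 *Hes5* and 6 *Nrarp* reads, and the highest St values of *Hes7*, *Hey1* and *Hey2*, at 0.679, 36.4 and 29.2 FPKM. The part of the astrocyte markers in the difference between genotypes was not tested.

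**Figure D4:**
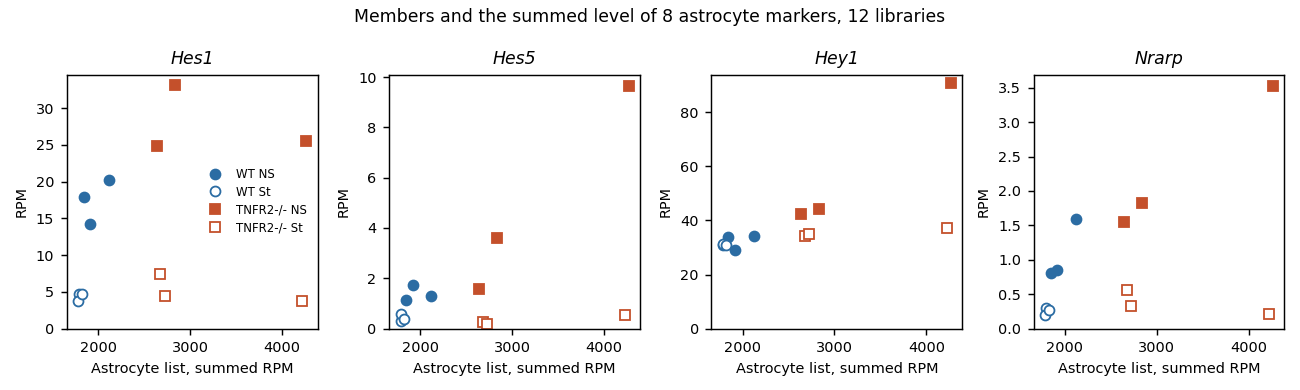
RPM of *Hes1*, *Hes5*, *Hey1* and *Nrarp* (vertical axes) against the summed RPM of 8 astrocyte markers (horizontal axes) in the 12 libraries. The TNFR2-/- NS library at 4266 has the highest *Hes5*, *Hey1* and *Nrarp*, and the St library of the same culture lies at 4224.

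After stimulation none of the 7 members differed between genotypes by the test, against 1.8% of genes called. *Hes1* differed by 0.18, with a 95% interval of −0.34 to 0.70 (adjusted p = 0.658), and *Hes6* by 0.04, with an interval of −0.14 to 0.22 (adjusted p = 0.778). *Hes5* differed by −0.11 ± 0.40 SE and *Nrarp* by 0.17 (interval −0.40 to 0.73). *Hey1* was the only member whose libraries did not overlap, at 33.5 to 36.4 FPKM against 30.2 to 30.6 (15.4% of genes tested were higher without overlap), by 0.19 ± 0.23 SE (adjusted p = 0.634).

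The fall with stimulation was larger in TNFR2-/- than in WT cells for 6 of 7 members, while *Hes7* rose less. The interaction was thus negative for all 7, as it was for 10783 of all 18081 genes tested. It passed for no member, against 0.00553% of genes called. At an unadjusted p under 0.05 there were 0 members by limma, against 7.95% of genes tested. The largest was *Hes5* at −1.22 ± 0.57 SE (adjusted p = 0.637), followed by *Nrarp* at −0.59 ± 0.36 SE (adjusted p = 0.742), *Hey1* at −0.58 ± 0.32 SE (adjusted p = 0.71) and *Hes1* at −0.49 ± 0.33 SE (adjusted p = 0.767). Without TNFR2-/- NS replicate 5 these were −0.67 for *Hes5*, −0.31 for *Nrarp*, −0.23 for *Hey1* and −0.54 for *Hes1*, and *Hey2* went from −0.13 to 0.11. With voom and a block for each culture *Hes5* passed at −2.10 (adjusted p = 0.0123), a setting chosen after the data were seen. Its other 21 settings gave an adjusted p of at most 0.861 and none at or under 0.05. The interaction, the NS comparison and the TNFR2-/- stimulation comparison share the TNFR2-/- NS libraries.

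Among the other Notch pathway genes, *Notch1* rose and *Lfng*, *Dlk1*, *Dlk2*, *Jag1*, *Neurl1b*, *Dtx1* and *Dtx4* fell with stimulation in both genotypes. Of 48 genes for receptors, ligands, glycosyltransferases, proteases, the nuclear complex and ubiquitin or trafficking factors, 2 were called higher and 9 lower in WT, and 3 and 10 in TNFR2-/- cells. Of all genes tested, 4.58% were called higher and 2.95% lower in WT, and 5.41% and 4.68% in TNFR2-/- cells. The pathway's median change was −0.10 and −0.17, beside −0.05 and −0.11 over all genes tested. *Notch1*, a receptor, rose from 22.9 ± 2.77 to 61.1 ± 1.68 FPKM (SD, n = 3) in WT, by 1.40 ± 0.11 SE (adjusted p = 6.34e-06), and by 1.52 ± 0.11 SE in TNFR2-/- cells (adjusted p = 2.72e-06). *Notch2* was called lower in WT, at −0.77 (adjusted p = 0.0458). *Lfng*, a fringe glycosyltransferase that is itself a Notch target, fell from 332 ± 54.5 to 30.5 ± 9.91 FPKM in WT, by −3.46 ± 0.33 SE (adjusted p = 3.63e-05), and by −4.18 ± 0.33 SE in TNFR2-/- cells (adjusted p = 6.55e-06).

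Of the 8 ligands, *Dlk1*, *Dlk2* and *Jag1* fell in both genotypes. *Dlk1*, an atypical ligand, changed by −1.78 in WT (adjusted p = 0.000185) and −1.47 in TNFR2-/- cells (adjusted p = 0.000524). *Jag1* changed by −1.03 (adjusted p = 0.014) and −1.07 (adjusted p = 0.00821), and *Dll1* was called lower in TNFR2-/- cells, at −0.78 (adjusted p = 0.00738), where *Jag2* rose by 0.84 (adjusted p = 0.00356). *Dll3*, a ligand that acts within the cell, had 828 ± 61.5 FPKM in WT NS and 740 ± 113 in WT St and was not called. Of the ubiquitin ligases, *Neurl1b* changed by −0.94 in WT (adjusted p = 0.000205) and −1.42 in TNFR2-/- cells (adjusted p = 7.09e-06), and *Dtx1* and *Dtx4* also fell in both. *Furin*, the protease that cuts Notch in the Golgi, rose by 0.90 in both (adjusted p = 0.000223 and 0.000165).

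**Figure D5:**
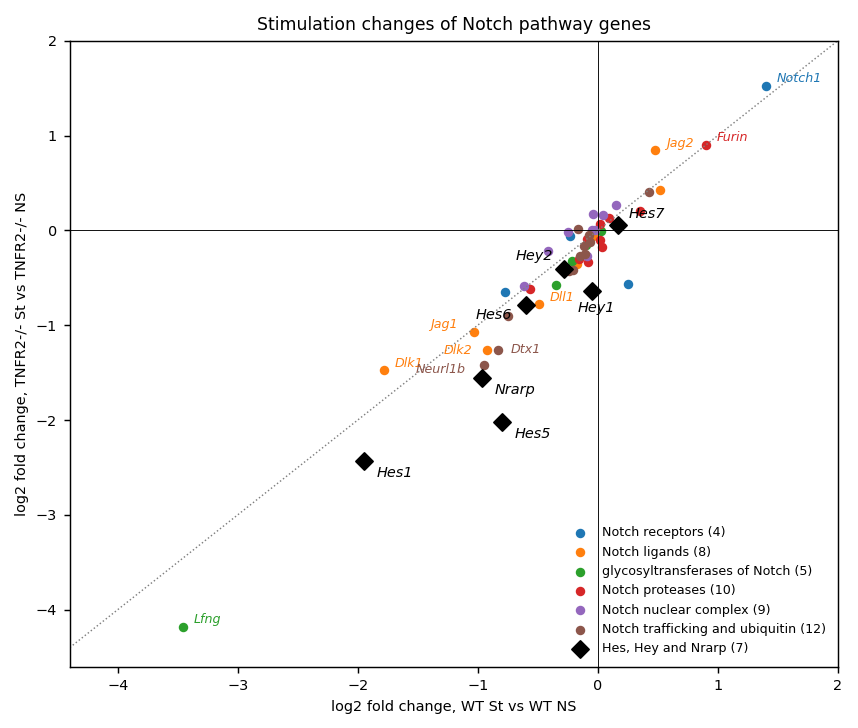
log2 fold changes with stimulation in WT (horizontal) and TNFR2-/- cells (vertical) for 48 Notch pathway genes, colored by list, and the 7 members tested (black diamonds), with the line of equality dotted. *Lfng*, *Hes1*, *Hes5* and *Nrarp* lie lowest, and *Notch1* and *Furin* lie highest.

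Among 14 other helix-loop-helix genes tested, *Olig2*, which specifies the lineage, changed by −1.23 in WT (adjusted p = 7.72e-06) and −1.17 in TNFR2-/- cells (adjusted p = 9.43e-06), and *Id4* fell in both. In all, 2 genes of this list were called higher and 3 lower in WT, and 2 and 4 in TNFR2-/- cells, beside the shares of 4.58% and 2.95%, and 5.41% and 4.68%, of all genes tested. Both that rose did so in each genotype, *Bhlhe40*, a stress-induced repressor, by 0.97 and 1.12, and *Helt*, a relative of the Hey genes, from 0 or 1 read per NS library to 11 to 14 in WT St and 16 to 40 in TNFR2-/- St. The 6 Tle and Aes genes belong to a family that includes the corepressors bound by Hes proteins. Of them, *Tle1* rose by 0.62 in WT (adjusted p = 0.00121) and 1.08 in TNFR2-/- cells (adjusted p = 1.54e-05). *Tle2* and *Tle6* fell in TNFR2-/- cells.

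Before stimulation *Id1* and *Id3*, targets of BMP signaling, were the 2 of 10 genes called in that list, higher in TNFR2-/- cells by 0.67 (adjusted p = 0.0268) and 0.94 (adjusted p = 0.0286), where 1.62% of all genes tested were called higher. *Id3* was 51.4 to 98.4 FPKM there, highest in replicate 5, against 30.3 to 40.6 in WT. After stimulation *Id2* (0.66, adjusted p = 0.0219) and *Helt* (0.98, adjusted p = 0.0493) were higher in TNFR2-/- cells.

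The pattern of *Hes1* over the 12 libraries was most like those of *Vangl1*, *Msi1* and *Mum1*, with Pearson r of 0.991, 0.988 and 0.986 among 13554 genes. *Hes6* was most like *Gpsm2* (0.988), *Glis2* (0.987) and *Speg* (0.985), *Hey1* most like *Iqce* (0.947), *Rit1* (0.938) and *Yipf1* (0.936), and *Hey2* most like *Tmem17* (0.994), *Me3* (0.959) and *Grsf1* (0.955). These points share the 4 group means, and after these were removed the values were 0.534 to 0.990. Among the members, r was 0.977 for *Hes1* and *Hes6* and 0.922 for *Hes1* and *Nrarp*, and fell to 0.449 and 0.428 without group means. *Hes5* and *Hey1* kept r = 0.844 without group means (0.835 with them), where TNFR2-/- NS replicate 5 holds the extreme value of both.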

How the data were processed

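RNA of 12 libraries from OPC cultures was sequenced. Per the labels and methods, reads were trimmed (Trim Galore), aligned to GRCm38 and counted (STAR), with edgeR for the study's calls. The deposited values are FPKM, the authors' counts divided by the library total and by bases per gene, in 1 table for NS and 1 for St, each of 45792 entries. Those sharing a symbol (229) were left out, and no column of values was left unused.

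FPKM were whole multiples of 1 read for 26636 of 26636 genes above 0 in at least 2 libraries (tolerance 0.01 reads), which gave back reads and library totals.

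The 4 group means of log2(FPKM + 0.5) were fitted in limma 3.58.1 (R 4.3.3) with a mean-dependent prior, over 18081 genes averaging 0.1 FPKM or more, with Benjamini-Hochberg adjustment over them. The fit was tested on simulated data. After group means were removed, libraries of equal genotype and number correlated at 0.338 to 0.649 (6 NS and St pairs, 13554 genes), those of other numbers at −0.455 to 0.088, and equal numbers of different genotypes at −0.055 to 0.204. Numbers were thus taken to pair libraries within a genotype. Legends of the paper that plot FPKM of this set describe independent experiments. No source ties cultures to separate litters, so p-values measure the spread between these cultures, which may be technical.

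Members and lists were chosen with earlier results of these data known. All members are named, then list genes called (at most 6 per list and comparison), *Dll3* and other genes named in advance whatever they showed, and the 3 genes most correlated with each member above 1 FPKM. Promoters are from RefSeq, and positions and exon lengths from GENCODE. Python 3.11.15, numpy 2.4.6, pandas 2.3.3 and matplotlib 3.10.9 were used. Alternatives were other pseudocounts, filters and scalings, no trend, 6 libraries alone, replicate blocks, voom and leaving out each library. Of these, no minimum level for a call and a culture block combined with voom or with median-of-ratios scaling were chosen after seeing the data. Results for some items are not reported here.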

Additional observations from a re-analysis of the deposited data

How the results depend on the processing

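In the NS comparison the number of members called went from 0 to 1 when only genes averaging 1 FPKM were tested and with a replicate block across genotypes (*Hes1* in the latter), to 2 with voom, and ranged from 0 to 2 when 1 library was left out (2 without TNFR2-/- NS replicate 4, 1 without TNFR2-/- St replicate 2). For WT stimulation it went from 2 to 1 with a pseudocount of 1 and with median-of-ratios scaling, alone or with the culture block, and ranged from 1 to 2 without 1 library. For TNFR2-/- stimulation it went from 2 to 4 with no minimum level and with 6 libraries alone, and ranged from 2 to 4 without 1 library (4 without TNFR2-/- NS replicate 4). The cause was not tested. Counts over all genes moved as well, from 524 to between 7 and 953 in the NS comparison, from 325 to between 39 and 462 in the St comparison, and from 1 to between 0 and 162 in the interaction. The culture block, which pairs libraries by number, changed no call of a member by adjusted p beyond those given for *Hey1*, *Hey2* and *Hes5*.

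Directions turned for small values. *Hey1* in WT stimulation was 0.0068 with median-of-ratios scaling. In the St comparison *Hes6* was −0.0056 and *Hey1* −0.039 with the replicate block across genotypes, and *Hes1* ranged from −0.11 to 0.39 without 1 library. *Hes7* was −0.032 in the NS comparison with that block, and without 1 library it ranged from −0.075 to 0.19 there, from −0.13 to 0.30 for TNFR2-/- stimulation, from −0.20 to 0.23 in the St comparison and from −0.29 to 0.13 in the interaction, where *Hey2* ranged from −0.40 to 0.12. *Hes7* and *Heyl* are limited by depth, with at most 17 and 7 reads in a library.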
